A study of Mus musculus with 12 samples.

Results

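The genes described here encode the subunits of the receptors for glutamate and GABA, the transmitters of fast excitation and inhibition in the brain. They were picked by gene symbol alone, as every annotated AMPA, kainate, delta, NMDA and metabotropic glutamate receptor gene and every GABA-A and GABA-B receptor gene among the mouse whole-genome BeadChip probes used here, and a gene with several probes was taken from the probe whose signal averaged highest. The rule gave 37 of the 19057 genes with a symbol, measured by 78 probes: 4 AMPA, 5 kainate, 6 NMDA, 6 metabotropic glutamate, 14 GABA-A and 2 GABA-B receptor genes. No delta receptor gene was among them, and receptor genes outside the 37 were not analysed here. The study asked how loss of Norrin, the secreted ligand encoded by *Ndp*, changes sonic hedgehog-driven medulloblastoma (MB) of the mouse cerebellum. The *NdpKO;Ptch+/-* MB group held 4 tumors from mice that lack *Ndp* through a lacZ cassette and carry 1 functional *Ptch* allele, on a background labelled mixed. The *Ptch+/-* MB group held 4 tumors with the same *Ptch* genotype and intact *Ndp*, on C57Bl/6. The WT GNP group held 4 samples of granule neuron progenitors (GNPs), the cells from which these tumors arise, purified with Percoll and pre-plating from wild-type C57Bl/6 cerebella at postnatal day 6. All tumors share the *Ptch* mutation and came from symptomatic mice, and the labels give neither their ages nor their sex, although *Ndp* is X-linked and the breeding scheme yields male compound mutants. The study describes controls from matched breeding cohorts, but by these labels genotype and strain background cannot be told apart between the tumor groups. Between tumors and GNPs, the tumor state, *Ptch* genotype, tissue preparation and age cannot be told apart either. *NdpKO;Ptch+/-* MB also differs from WT GNP in *Ndp* genotype and labelled strain background, which cannot be separated from these. Each array is a separately labelled sample, but the labels do not say that each came from a different mouse, so every p measures the spread between these samples.

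AMPA and kainate receptors are tetrameric cation channels that carry fast excitatory current, and NMDA receptors are related channels that also need glycine or D-serine and admit calcium. Metabotropic glutamate receptors and GABA-B receptors act through G proteins, whereas GABA-A receptors are pentameric chloride channels, which can depolarize young neurons because of their high internal chloride. In the cerebellum, granule neurons gain many of these receptors after they leave the cell cycle, and GABA is made by inhibitory interneurons and Purkinje cells rather than by granule neurons.

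Most of the receptor genes were not above background. Signals are given on a log2 scale, on which the median of every array is 4.15, and 4.5 was taken as the background limit. By that limit, 8 genes were measured on all 12 arrays (*Gria1*, *Gria2*, *Gria3*, *Grik2*, *Grik5*, *Grin2b*, *Grin3a* and *Gabbr1*), 8 on some arrays and 21 on none. All 4 AMPA receptor genes reached the limit on at least 1 array, and 3 did so on all 12. Of the 14 GABA-A receptor genes, 11 reached it on no array and none on all 12. Most GABA-A receptor genes have fewer probes than any AMPA receptor gene, and the classes were not tested against each other. *Gabra6*, the subunit gene typical of mature granule neurons, was among those at background throughout, and so were *Grin2a*, *Grin2c*, *Grin2d*, *Grik3*, *Grik4* and *Gabbr2*. A limit of 5 gave 6 genes on all arrays, 9 on some and 22 on none. A probe at background says only that it gave no signal above the limit, and no probe's level is set against another probe's.

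**Figure D1:**
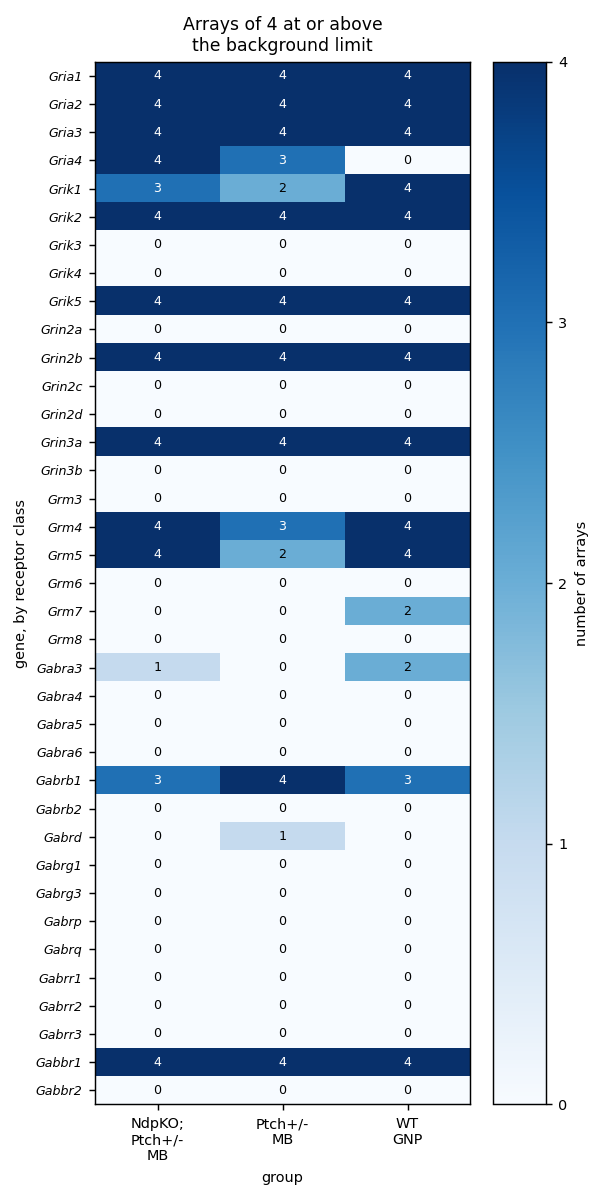
Number of arrays (of 4 per group, colour and printed number) on which the highest-mean probe of each of the 37 receptor genes reached a log2 signal of 4.5, by group. The AMPA rows are filled almost throughout, *Gria4* is filled in tumors and at 0 in WT GNPs, and 21 genes are at 0 in every group.

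Few of these genes differed between groups, and the counts of higher calls were near the shares of all genes given below. Those that differed were mostly glutamate receptor genes higher in tumors, but most genes that reached the limit were also glutamate receptor genes. *Gria2* and *Grin3a* were higher than in WT GNPs in both tumor groups, *Grik2* in *Ptch+/-* MB and *Gria4* in *NdpKO;Ptch+/-* MB, and *Gabbr1* was lower in *NdpKO;Ptch+/-* MB. In the limma fit across all 45281 probes, with Benjamini-Hochberg adjustment and a threshold of 0.05, *Ptch+/-* MB against WT GNP called 3 of the 37 genes higher (*Gria2*, *Grik2* and *Grin3a*), where 10.3% of all genes were higher, and 1 lower (*Gabbr2*), where 10.9% were lower. The *Gabbr2* call is a difference of -0.03 between probes at background on every array. *NdpKO;Ptch+/-* MB against WT GNP called 4 higher (*Gria2*, *Gria4*, *Grin3a* and *Grin3b*), where 7.69% of all genes were higher, and 1 lower (*Gabbr1*), where 7.98% were lower. The *Grin3b* call, a difference of 0.12 (adjusted p = 0.0222), again concerns a probe under the limit on all 12 arrays, and it was lost without WT GNP replicate 2 (adjusted p = 0.0585) or replicate 4 (0.0558). Both comparisons use the same GNP arrays. In each, 11 of the 37 had an unadjusted p under 0.05, where 34.3% of all genes did in *Ptch+/-* MB and 29.7% in *NdpKO;Ptch+/-* MB, and 21.2% and 15.7% passed the adjusted threshold in either direction. *NdpKO;Ptch+/-* MB against *Ptch+/-* MB called none of the 37 in either direction, where 0.808% of all genes were higher and 1.26% lower (2.07% in all), and 6 of them had an unadjusted p under 0.05, where 16.4% of all genes did. By share, the receptor genes were under all genes for higher and lower calls in *Ptch+/-* MB and for lower calls in *NdpKO;Ptch+/-* MB, and above all genes for higher calls in *NdpKO;Ptch+/-* MB, a count that includes *Grin3b* at background. The median log2 difference of the 37 genes was 0.000857 for *Ptch+/-* MB minus WT GNP and 0.00133 for *NdpKO;Ptch+/-* MB minus WT GNP, beside -0.000495 and 0.000432 over all genes. In bulk RNA, fewer cells of a type and less RNA per cell cannot be told apart.

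**Figure D2:**
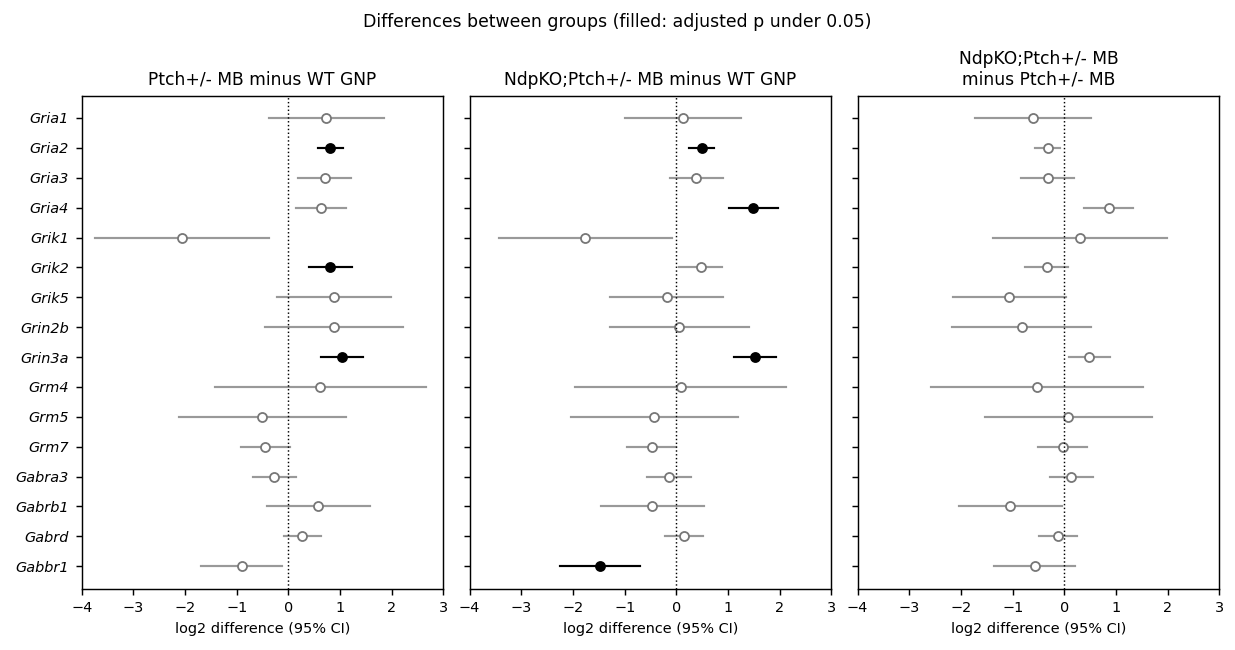
Log2 differences (points) with 95% confidence intervals (bars) for the 16 receptor genes that reached the background limit on at least 1 array, for each of the 3 comparisons. Filled points passed an adjusted p of 0.05: 3 against WT GNP in *Ptch+/-* MB, 4 in *NdpKO;Ptch+/-* MB and none between the tumor groups.

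Cell type markers also differed between the groups. Over all genes, 10.3% were higher and 10.9% lower in *Ptch+/-* MB than in WT GNP. In *NdpKO;Ptch+/-* MB against WT GNP these shares were 7.69% and 7.98%, and in *NdpKO;Ptch+/-* MB against *Ptch+/-* MB 0.808% and 1.26%. Of 8 listed inhibitory interneuron markers, 7 were lower than in WT GNPs in each tumor group (2 of these calls at background), and the log2 of their summed signal ran from 12.96 to 13.30 in WT GNPs, from 9.35 to 11.36 in *Ptch+/-* MB and from 11.37 to 13.55 in *NdpKO;Ptch+/-* MB, where *Pvalb* was higher. *Tfap2b*, a transcription factor of the GABAergic lineages of the cerebellum, was at least 81.1-fold lower in both tumor groups. Of 11 markers of postmitotic and mature granule neurons, 6 were lower in *Ptch+/-* MB and 5 in *NdpKO;Ptch+/-* MB, and none was higher. Among 8 Purkinje cell markers, 0 were higher and 2 lower than in WT GNPs in each tumor group, and 5 were at background on all arrays. For 12 general neuron markers, 1 was higher and 3 lower in *Ptch+/-* MB, and 1 higher and 2 lower in *NdpKO;Ptch+/-* MB. Between the tumor groups, 1 general neuron marker was higher in *NdpKO;Ptch+/-* MB. Of 9 microglial markers, 4 were higher in each tumor group, with a summed signal of 9.00 to 9.38 in WT GNPs against 11.30 to 12.61 over the tumors. Of 11 oligodendrocyte lineage markers, 3 were higher (*Olig1*, *Pdgfra* and *Cspg4*) and 6 lower in *Ptch+/-* MB than in WT GNPs, and the same 3 were higher and 5 lower in *NdpKO;Ptch+/-* MB. The genes lower in *Ptch+/-* MB were not myelin genes alone, and *Pdgfra* is also on the list of mural and meningeal markers. The myelin gene *Mag* ran from 10.42 to 11.80 in WT GNPs, lay under the limit in *Ptch+/-* MB and was at most 5.56 in *NdpKO;Ptch+/-* MB. Of 10 endothelial markers, 1 was higher and 5 lower in *Ptch+/-* MB than in WT GNPs, 0 were higher and 1 lower in *NdpKO;Ptch+/-* MB, and 1 was higher in *NdpKO;Ptch+/-* MB than in *Ptch+/-* MB. Of 12 astrocyte and Bergmann glia markers, 4 were higher and 1 (*Gja1*) lower in *Ptch+/-* MB than in WT GNPs, with 6 positive and 6 negative differences, 4 were higher and 0 lower in *NdpKO;Ptch+/-* MB, and 1 was higher in *NdpKO;Ptch+/-* MB than in *Ptch+/-* MB. Of 11 granule progenitor markers, 4 were higher and 1 lower in *Ptch+/-* MB than in WT GNPs, 1 was higher and 1 lower in *NdpKO;Ptch+/-* MB, and 1 (*Ccnd2*) was lower in *NdpKO;Ptch+/-* MB than in *Ptch+/-* MB. Among them, *Zic1*, *Barhl1* and *Meis1* gave high signals in every group (group means of 11.07 or more), whereas *Atoh1*, *Mycn* and *Gli1* were at background in every group, tumors included. The study reports *Atoh1*, *Mycn* and *Gli1* by in situ hybridization in both tumor types, so the background signal of these probes does not show that the genes are silent. The *Ndp* probe was also at background in all 3 groups, with means of 4.14, 4.17 and 4.16, so it does not check the knockout label. Among 10 mural and meningeal markers, 1 was higher and 1 lower than in WT GNPs in each tumor group. Between tumors, 1 of them was higher in *NdpKO;Ptch+/-* MB. For 8 proliferating cell markers, 1 was higher in *Ptch+/-* MB than in WT GNPs, and 1 was lower in *NdpKO;Ptch+/-* MB than in *Ptch+/-* MB. The part of these cell types in the differences described here was not tested.

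**Figure D3:**
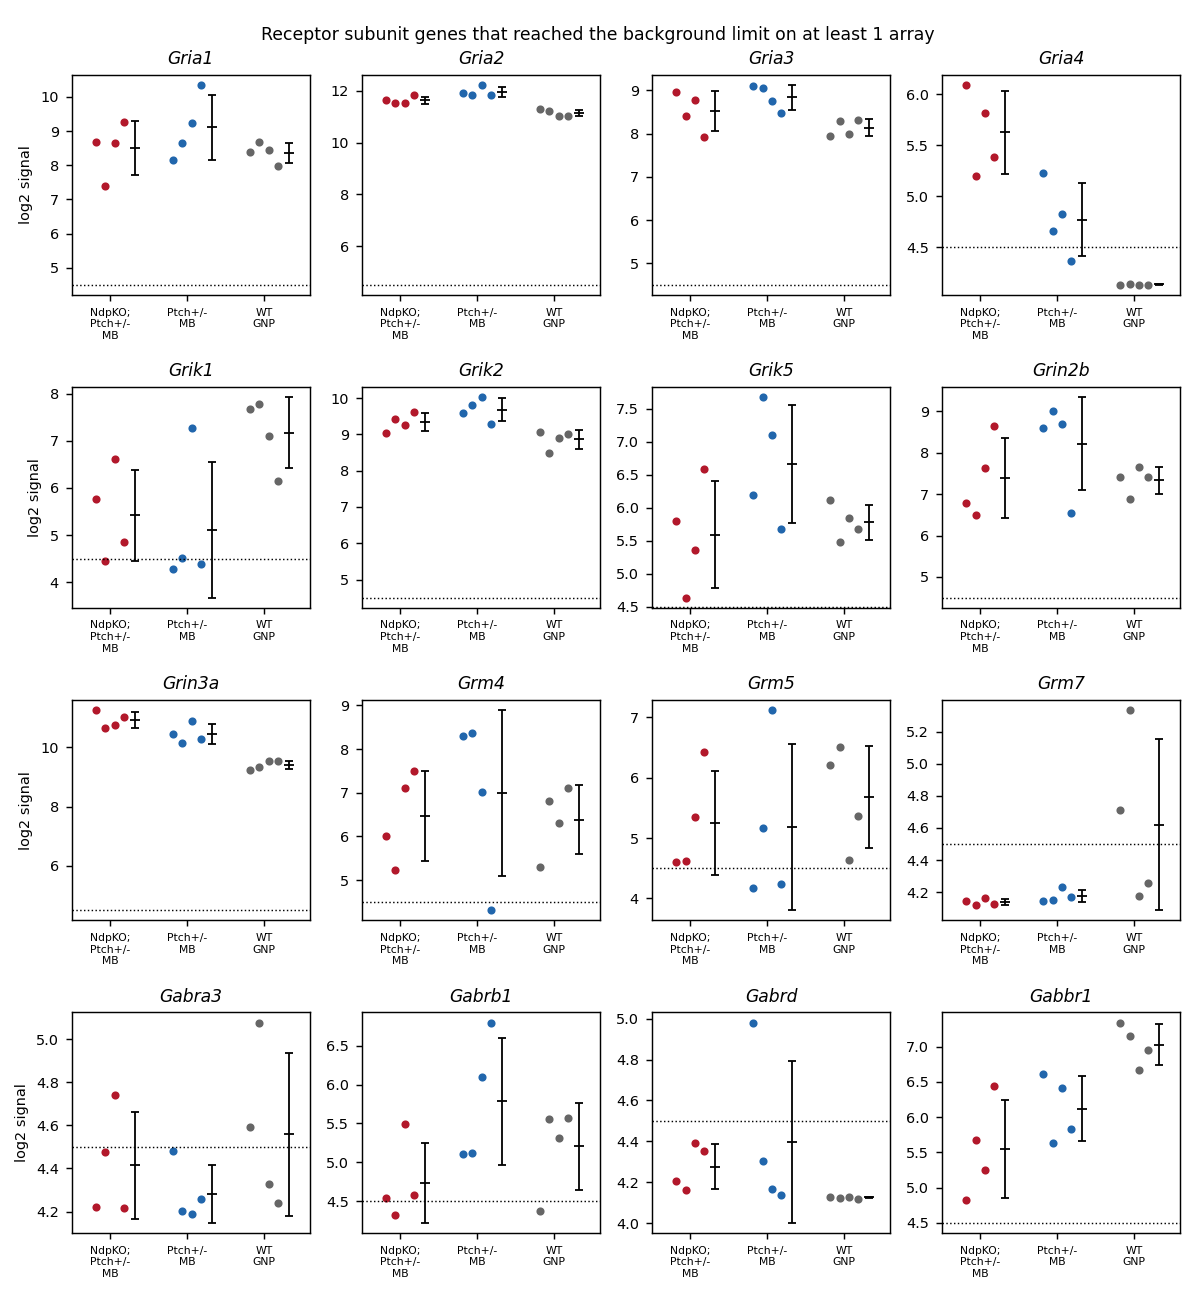
Log2 signal of each receptor gene that reached the background limit (dotted line, 4.5) on at least 1 array. Each point is 1 array, with the group mean and SD (bars, 4 arrays) beside it, and the vertical axes differ between panels: *Gria2* and *Grin3a* have no tumor array as low as any WT GNP array, whereas *Grm4*, *Grm5* and *Grik1* spread widely among tumors.

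The AMPA receptor genes encode the pore subunits GluA1 to GluA4, of which GluA2, from *Gria2*, makes the channel nearly impermeable to calcium once its RNA is edited. *Gria2* gave signals of 11.92, 11.84, 12.25 and 11.86 in *Ptch+/-* MB, of 11.65, 11.54, 11.55 and 11.83 in *NdpKO;Ptch+/-* MB and of 11.30, 11.22, 11.05 and 11.04 in WT GNP. The 3 groups did not overlap: every *Ptch+/-* MB array was above every *NdpKO;Ptch+/-* MB array, and every *NdpKO;Ptch+/-* MB array above every WT GNP array. The difference from WT GNP was 0.81 in *Ptch+/-* MB (SE 0.11, adjusted p = 0.000653) and 0.49 in *NdpKO;Ptch+/-* MB (SE 0.11, adjusted p = 0.0142), both from the limma fit. All 3 *Gria2* probes passed in *Ptch+/-* MB, with differences of 0.59 to 1.53, and 2 of 3 in *NdpKO;Ptch+/-* MB, where all were positive (0.45 to 1.05). Between tumor groups the difference was -0.33 (95% CI -0.56 to -0.09, adjusted p = 0.203), which did not pass.

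*Gria4*, which encodes GluA4, a subunit with fast gating, was at background in progenitors by its highest-mean probe. Its signals were 6.10, 5.20, 5.82 and 5.39 in *NdpKO;Ptch+/-* MB, 5.23, 4.66, 4.82 and 4.37 in *Ptch+/-* MB, and 4.14, 4.14, 4.13 and 4.13 in WT GNP. Every *NdpKO;Ptch+/-* MB array and 3 of 4 *Ptch+/-* MB arrays were above the limit, and no WT GNP array was. The mean in *NdpKO;Ptch+/-* MB was at least 2.18-fold above the limit that bounds WT GNP (fitted log2 difference 1.49, SE 0.21, adjusted p = 0.00160), and a second probe of the gene, which reached the limit on 1 WT GNP array, passed as well, at 1.13. In *Ptch+/-* MB the bound was at least 1.21-fold and the fitted difference of 0.63 did not pass (adjusted p = 0.0738), although it did without *Ptch+/-* MB replicate 4 (adjusted p = 0.0399). Between the tumor groups, *Gria4* had the smallest unadjusted p of the 37 genes, with a fitted difference of 0.86 (95% CI 0.38 to 1.34, adjusted p = 0.103), and the groups overlapped by a single array: *Ptch+/-* MB replicate 1, at 5.23, lay above *NdpKO;Ptch+/-* MB replicate 2, at 5.20. Its second probe gave 0.82. With probes under the limit on all arrays left out of the fit, the adjusted p was 0.0333.

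*Gria1* and *Gria3* encode GluA1 and GluA3, and neither passed in any comparison. *Gria1* signals were 8.17, 8.65, 9.24 and 10.36 in *Ptch+/-* MB, 8.68, 7.40, 8.64 and 9.27 in *NdpKO;Ptch+/-* MB and 8.38, 8.67, 8.43 and 7.98 in WT GNP. The tumor arrays spread to either side of the GNP arrays, and the differences were 0.74 (95% CI -0.38 to 1.85) in *Ptch+/-* MB and 0.13 (95% CI -0.99 to 1.25) in *NdpKO;Ptch+/-* MB. *Gria3* signals were 9.10, 9.05, 8.75 and 8.47 in *Ptch+/-* MB, 8.97, 8.41, 8.77 and 7.92 in *NdpKO;Ptch+/-* MB, and 7.95, 8.29, 7.99 and 8.32 in WT GNP. The *Ptch+/-* MB and GNP arrays did not overlap, with a difference of 0.71 (95% CI 0.19 to 1.22, adjusted p = 0.0630) that passed without *Ptch+/-* MB replicate 4 (0.0441) or *NdpKO;Ptch+/-* MB replicate 4 (0.0254). A second *Gria3* probe, nearer to the limit, had the opposite sign in both tumor groups. It gave -0.37 in *Ptch+/-* MB and -0.58 in *NdpKO;Ptch+/-* MB (95% CI -1.13 to -0.03), where the highest-mean probe gave 0.38. Neither difference of the second probe passed (adjusted p = 0.369 and 0.177 in the limma fit). By the highest-mean probe, all 4 AMPA receptor genes had a positive difference from WT GNP in both tumor groups, with a median of 0.72 in *Ptch+/-* MB and 0.44 in *NdpKO;Ptch+/-* MB, and 1 and 2 of the 4 passed. Over all 19057 genes, 9318 had a positive difference in *Ptch+/-* MB and 9755 in *NdpKO;Ptch+/-* MB.

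The upstream sequences of the AMPA receptor genes that passed are shown as the regulatory sequence next to the genes this section turns on. They are the 250 bases before the RefSeq start site, from the mouse assembly GRCm38.p6, written 5′ to 3′ on the gene's strand and in lower case, since the motif searched has no match in them. *Gria2* lies on chr3:80802836-80803085 (minus strand) and *Gria4* on chr9:4796235-4796484 (minus strand).
Gria2: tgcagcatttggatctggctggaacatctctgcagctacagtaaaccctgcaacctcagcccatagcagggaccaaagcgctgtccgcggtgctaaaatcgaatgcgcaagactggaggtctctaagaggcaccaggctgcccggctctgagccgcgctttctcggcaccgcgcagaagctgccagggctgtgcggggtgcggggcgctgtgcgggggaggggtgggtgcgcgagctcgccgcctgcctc
Gria4: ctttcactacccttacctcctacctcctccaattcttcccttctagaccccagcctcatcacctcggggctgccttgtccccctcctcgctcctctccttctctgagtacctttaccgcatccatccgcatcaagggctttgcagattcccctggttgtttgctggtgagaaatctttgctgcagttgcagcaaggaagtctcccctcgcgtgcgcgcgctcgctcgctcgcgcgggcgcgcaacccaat
The motif searched was a GLI site, TGGGTGGTC on either strand, through which hedgehog signals reach their target genes. It is in 74 of 32851 such windows of all genes (0.225%) and in 0 of the 35 windows of 28 receptor genes. That these letters are not in a window says nothing of binding.

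AMPA and kainate receptors work with auxiliary proteins that set their trafficking and gating. Of 20 such partner genes, 5 were higher and 3 lower in *Ptch+/-* MB than in WT GNP (1 of these calls, *Neto1*, at background), 3 were higher and 1 lower in *NdpKO;Ptch+/-* MB, and none passed between the tumors. Over all genes 10.3% were higher and 10.9% lower in *Ptch+/-* MB, and 7.69% and 7.98% in *NdpKO;Ptch+/-* MB, so that the 4 calls of 20 in *NdpKO;Ptch+/-* MB lie near the 15.7% called in either direction. *Cacng5*, a transmembrane AMPA receptor regulatory protein, rose by 1.97 in *Ptch+/-* MB (SE 0.32, adjusted p = 0.00260) and by 1.57 in *NdpKO;Ptch+/-* MB (SE 0.32, adjusted p = 0.0113). *Gsg1l*, which slows recovery of AMPA receptors from desensitization, rose by 1.06 and 0.88 (adjusted p = 0.00371 and 0.0128). *Grip1*, a scaffold that binds GluA2, rose by 0.41 and 0.47 (adjusted p = 0.0322 and 0.0211). *Cacng3* was at background in WT GNP and at least 1.95-fold higher in *Ptch+/-* MB (adjusted p = 0.0477). In the other direction, *Nptx2*, a secreted pentraxin that clusters AMPA receptors, gave 9.21, 9.25, 9.10 and 8.85 in WT GNP, 7.83, 7.57, 7.48 and 7.08 in *Ptch+/-* MB and 6.37, 6.59, 6.18 and 7.09 in *NdpKO;Ptch+/-* MB. No tumor array reached the lowest GNP array, and the differences were -1.62 (SE 0.21, adjusted p = 0.000672) and -2.54 (SE 0.21, adjusted p = 5.87e-05). *Neto2*, an auxiliary subunit of kainate receptors, fell by 0.48 in *Ptch+/-* MB (adjusted p = 0.0256).

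Among the kainate receptor genes, *Grik2* passed in 1 comparison. It encodes GluK2, a subunit that forms channels alone or with *Grik5*'s product. The second *Grik2* probe was at background on all arrays, so the values below rest on a single probe. *Grik2* signals were 9.59, 9.81, 10.02 and 9.30 in *Ptch+/-* MB, 9.04, 9.44, 9.26 and 9.62 in *NdpKO;Ptch+/-* MB, and 9.05, 8.49, 8.90 and 9.01 in WT GNP. Every *Ptch+/-* MB array was above every GNP array, whereas *NdpKO;Ptch+/-* MB replicate 1 lay just under the highest GNP array. The difference was 0.81 in *Ptch+/-* MB (SE 0.19, 95% CI 0.39 to 1.23, adjusted p = 0.0148) and 0.47 in *NdpKO;Ptch+/-* MB (95% CI 0.05 to 0.89, adjusted p = 0.149). The tumor groups differed by -0.34 (95% CI -0.76 to 0.08, adjusted p = 0.501), so that the pass in 1 group and not the other is no evidence of a difference between them.

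*Grik1*, which encodes GluK1, had the most negative fitted differences of the 37 genes. They come from the only 1 of its 7 probes that reached the limit on any array. The *Grik1* signals were 7.67, 7.79, 7.09 and 6.14 in WT GNP, 5.77, 4.44, 6.61 and 4.84 in *NdpKO;Ptch+/-* MB, and 4.28, 4.52, 7.27 and 4.38 in *Ptch+/-* MB. Of the *Ptch+/-* MB arrays, 3 lay at or near the limit and 1 was as bright as the GNP arrays. The fitted differences were -2.06 in *Ptch+/-* MB (95% CI -3.74 to -0.38, adjusted p = 0.0936) and -1.76 in *NdpKO;Ptch+/-* MB (95% CI -3.44 to -0.08, adjusted p = 0.179), and neither passed. Without *Ptch+/-* MB replicate 3 the first was -2.78 (adjusted p = 0.0116). *Grik5*, whose product GluK5 needs another subunit to form a channel, gave 6.20, 7.68, 7.10 and 5.68 in *Ptch+/-* MB, 5.80, 4.64, 5.36 and 6.58 in *NdpKO;Ptch+/-* MB and 6.11, 5.48, 5.85 and 5.68 in WT GNP. These groups overlapped, and the difference between tumor groups was -1.07 (95% CI -2.16 to 0.03, adjusted p = 0.394). *Grik3* and *Grik4* were at background on all arrays.

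Among the NMDA receptor genes, *Grin3a* had the largest called difference. Its product, GluN3A, binds glycine rather than glutamate, lowers the calcium permeability of the channel and is known for its abundance in the young brain. *Grin3a* signals were 11.27, 10.67, 10.76 and 11.02 in *NdpKO;Ptch+/-* MB, 10.46, 10.14, 10.91 and 10.29 in *Ptch+/-* MB and 9.24, 9.35, 9.53 and 9.54 in WT GNP. All 8 tumor arrays were above all 4 GNP arrays, and the tumor groups overlapped through *Ptch+/-* MB replicate 3. The difference was 1.52 in *NdpKO;Ptch+/-* MB (SE 0.18, 95% CI 1.12 to 1.92, adjusted p = 0.000512) and 1.04 in *Ptch+/-* MB (SE 0.18, 95% CI 0.64 to 1.44, adjusted p = 0.00334), and both passed without any single array (adjusted p at most 0.00233 and 0.0122). Between tumor groups it was 0.48 (95% CI 0.08 to 0.88, adjusted p = 0.273). The gene is measured by 1 probe, so that there is no second probe to compare.

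*Grin2b* encodes GluN2B, the glutamate-binding subunit of immature NMDA receptors, and was the other NMDA receptor gene above background. Its signals were 8.60, 9.02, 8.70 and 6.55 in *Ptch+/-* MB, 6.78, 6.50, 7.64 and 8.64 in *NdpKO;Ptch+/-* MB and 7.41, 6.87, 7.65 and 7.41 in WT GNP. In *Ptch+/-* MB, 3 arrays were above every GNP array and replicate 4 was below them. The differences from WT GNP were 0.88 in *Ptch+/-* MB (95% CI -0.46 to 2.23, adjusted p = 0.385) and 0.06 in *NdpKO;Ptch+/-* MB (95% CI -1.29 to 1.40, adjusted p = 0.972). *Grin2a*, *Grin2c* and *Grin2d*, which encode the GluN2 subunits of later or other neurons, stayed at background in all groups.

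None of the 6 metabotropic glutamate receptor genes passed in any limma comparison. In *Ptch+/-* MB against WT GNP, 1 had an unadjusted p under 0.05 (*Grm3*), where 34.3% of all genes did. In *NdpKO;Ptch+/-* MB against WT GNP, 2 did (*Grm3* and *Grm7*), where 29.7% of all genes did. Between tumor groups 0 did, where 16.4% of all genes did. *Grm3* was at background on every array, with a difference of -0.006 in both tumor groups. *Grm4*, the inhibitory receptor mGlu4 of granule cell terminals, gave 8.30, 8.37, 7.01 and 4.31 in *Ptch+/-* MB, 6.02, 5.23, 7.11 and 7.51 in *NdpKO;Ptch+/-* MB, and 5.30, 6.82, 6.30 and 7.10 in WT GNP. The *Ptch+/-* MB arrays covered the whole range from background to well above the GNP arrays, and the difference of 0.62 had a 95% CI of -1.43 to 2.66. *Grm5*, which encodes mGlu5 and signals through phospholipase C, gave 4.18, 5.16, 7.12 and 4.24 in *Ptch+/-* MB, 4.61, 4.62, 5.34 and 6.42 in *NdpKO;Ptch+/-* MB, and 6.21, 6.51, 4.63 and 5.37 in WT GNP. Its groups overlapped fully. *Grm7*, which encodes the presynaptic receptor mGlu7, was above the limit on 2 GNP arrays (4.71 and 5.34) and on no tumor array (at most 4.23), with an adjusted p of 0.199 in *Ptch+/-* MB and 0.193 in *NdpKO;Ptch+/-* MB.

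Of the GABA-A receptor genes, 3 of 14 reached the limit on some array and none passed in any limma comparison. In *Ptch+/-* MB against WT GNP, 2 had an unadjusted p under 0.05 (*Gabra4* and *Gabrg3*), where 34.3% of all genes did. In *NdpKO;Ptch+/-* MB against WT GNP, 1 did (*Gabra4*), where 29.7% of all genes did. Between tumor groups, 2 did (*Gabrg1* and *Gabrb1*), where 16.4% of all genes did. Of these genes, only *Gabrb1* reached the limit on any array. *Gabrb1*, the beta1 subunit gene, gave 5.11, 5.12, 6.10 and 6.80 in *Ptch+/-* MB, 4.54, 4.33, 5.49 and 4.58 in *NdpKO;Ptch+/-* MB and 4.38, 5.55, 5.31 and 5.57 in WT GNP. Only 1 *NdpKO;Ptch+/-* MB array, replicate 3, lay within the range of the *Ptch+/-* MB arrays, and the difference between tumor groups was -1.05 (95% CI -2.04 to -0.05, adjusted p = 0.349). *Gabra3*, the alpha3 subunit gene, was above the limit on 2 GNP arrays (4.59 and 5.08) and 1 *NdpKO;Ptch+/-* MB array (4.74). *Gabrd*, whose delta subunit forms extrasynaptic receptors in mature granule neurons, exceeded it on 1 *Ptch+/-* MB array (4.98) alone. The other 11 genes, *Gabra4*, *Gabra5*, *Gabra6*, *Gabrb2*, *Gabrg1*, *Gabrg3*, *Gabrp*, *Gabrq*, *Gabrr1*, *Gabrr2* and *Gabrr3*, were at background throughout. Neither gamma subunit gene measured here, *Gabrg1* or *Gabrg3*, was thus above background.

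The GABA-B receptor is a dimer of the products of *Gabbr1*, which binds GABA, and *Gabbr2*, which couples to the G protein. *Gabbr1* signals were 7.34, 7.15, 6.67 and 6.95 in WT GNP, 6.60, 5.64, 6.41 and 5.83 in *Ptch+/-* MB, and 4.82, 5.68, 5.25 and 6.45 in *NdpKO;Ptch+/-* MB. All tumor arrays were below all GNP arrays, and the tumor groups overlapped. The difference was -1.48 in *NdpKO;Ptch+/-* MB (SE 0.35, 95% CI -2.26 to -0.70, adjusted p = 0.0213) and -0.91 in *Ptch+/-* MB (SE 0.35, 95% CI -1.69 to -0.12, adjusted p = 0.113). The call in *NdpKO;Ptch+/-* MB was close to the threshold: it was lost without *NdpKO;Ptch+/-* MB replicate 1 (adjusted p = 0.0543) or replicate 3 (0.0604), and without WT GNP replicate 1 (0.0622) or replicate 2 (0.0568). Between tumor groups the difference was -0.57 (95% CI -1.35 to 0.21, adjusted p = 0.560). The second *Gabbr1* probe was at background on all arrays, and so was *Gabbr2*.

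Of 13 genes whose proteins anchor or assemble GABA receptors, 0 were higher and 5 lower in *Ptch+/-* MB than in WT GNP, 0 were higher and 4 lower in *NdpKO;Ptch+/-* MB (1 call in each, *Insyn1*, at background), and none passed between the tumors. Over all genes 10.9% and 7.98% were lower. *Kctd12*, an auxiliary subunit that speeds GABA-B receptor desensitization, gave 9.47, 9.42, 9.22 and 9.29 in WT GNP, 7.69, 7.48, 8.66 and 6.82 in *Ptch+/-* MB and 7.84, 7.52, 7.72 and 7.08 in *NdpKO;Ptch+/-* MB. No tumor array reached the GNP range, and the differences were -1.69 (SE 0.33, adjusted p = 0.00695) and -1.81 (SE 0.33, adjusted p = 0.00623). *Kctd8*, a related subunit, gave 6.31, 6.36, 4.65 and 5.11 in WT GNP and was at background on all tumor arrays, at least 2.16-fold lower in both groups (adjusted p = 0.0158 in *Ptch+/-* MB and 0.0208 in *NdpKO;Ptch+/-* MB). *Clptm1*, which limits the forward trafficking of GABA-A receptors, had differences of -0.46 and -0.59 (adjusted p = 0.0128 and 0.00444).

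**Figure D4:**
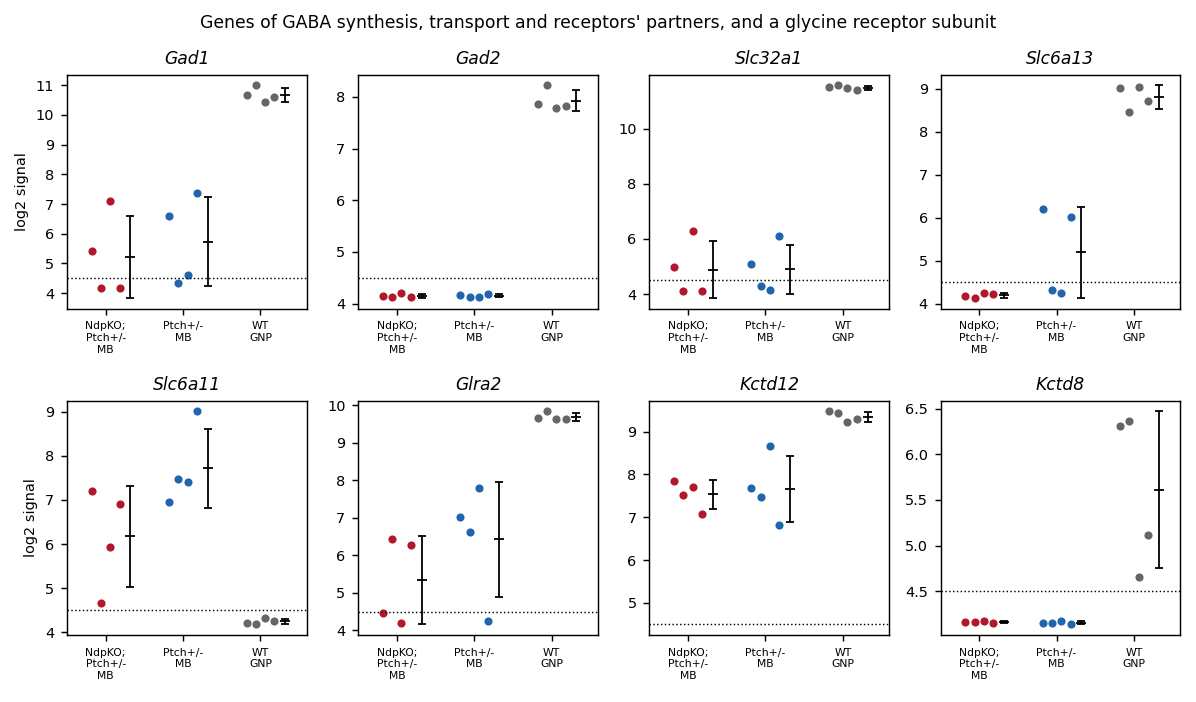
Log2 signal of genes of GABA synthesis (*Gad1*, *Gad2*), GABA transport (*Slc32a1*, *Slc6a13*, *Slc6a11*), GABA-B receptor auxiliary subunits (*Kctd12*, *Kctd8*) and a glycine receptor subunit (*Glra2*). Each point is 1 array, with the group mean and SD (bars, 4 arrays), the dotted line is the background limit of 4.5 and the vertical axes differ: 7 of the 8 genes have every tumor array below every WT GNP array, and *Slc6a11* has every tumor array above them.

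Genes that make and move GABA were mostly lower in tumors where they passed. Of 10 genes of GABA synthesis, uptake and chloride transport, 1 was higher and 5 were lower in *Ptch+/-* MB than in WT GNP, 0 were higher and 4 lower in *NdpKO;Ptch+/-* MB, and none passed between the tumors, beside the shares of all genes given above (10.9% and 7.98% lower). *Gad2*, a GABA-synthesizing decarboxylase, gave 7.87, 8.23, 7.79 and 7.83 in WT GNP and at most 4.20 on the 8 tumor arrays, at least 10.8-fold lower in each tumor group (adjusted p = 2.25e-09 in *Ptch+/-* MB and 2.22e-09 in *NdpKO;Ptch+/-* MB). *Gad1*, the other decarboxylase, gave 10.66, 11.00, 10.42 and 10.62 in WT GNP, 6.61, 4.34, 4.59 and 7.38 in *Ptch+/-* MB and 5.42, 4.18, 7.10 and 4.16 in *NdpKO;Ptch+/-* MB. Tumors thus ranged from background to 7.38, and the fitted differences were -4.95 (SE 0.81, adjusted p = 0.00258) and -5.46 (SE 0.81, adjusted p = 0.00199). *Slc32a1*, the vesicular GABA transporter, had fitted differences of -6.60 and -6.62 (adjusted p = 3.68e-05 and 5.34e-05). *Slc6a13*, a GABA transporter, was at background on all *NdpKO;Ptch+/-* MB arrays, at least 19.8-fold lower than in WT GNP (adjusted p = 0.000129). *Slc6a11*, the astrocytic GABA transporter GAT3, went the other way: it gave 6.96, 7.48, 7.41 and 9.00 in *Ptch+/-* MB, 7.21, 4.67, 5.94 and 6.90 in *NdpKO;Ptch+/-* MB, and 4.22, 4.18, 4.33 and 4.26 in WT GNP. It was at least 9.27-fold higher in *Ptch+/-* MB (adjusted p = 0.00266), and in *NdpKO;Ptch+/-* MB it did not pass (adjusted p = 0.0571). *Gad1*, *Gad2* and *Slc32a1* are also 3 of the 8 interneuron markers above, so these values and that marker list are not separate measurements.

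Among 5 glycine receptor genes, *Glra2*, the alpha2 subunit of immature neurons, was lower in both tumor groups. It gave 9.67, 9.83, 9.64 and 9.62 in WT GNP, 7.03, 6.61, 7.80 and 4.25 in *Ptch+/-* MB, and 4.46, 6.43, 4.19 and 6.27 in *NdpKO;Ptch+/-* MB. Every tumor array was below every GNP array, with fitted differences of -3.27 (SE 0.76, adjusted p = 0.0159) and -4.35 (SE 0.76, adjusted p = 0.00491). The other 4 glycine receptor genes did not pass.

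On the glutamate side, 2 of 11 genes of glutamate synthesis, uptake and vesicle loading were higher and 3 lower in *Ptch+/-* MB than in WT GNP, 1 was higher and 4 lower in *NdpKO;Ptch+/-* MB, and none passed between tumors. Of all genes, 10.3% were higher and 10.9% lower in *Ptch+/-* MB, and 7.69% and 7.98% in *NdpKO;Ptch+/-* MB. *Slc1a2*, the main glial glutamate transporter, gave 9.07, 8.61, 8.97 and 9.46 in *Ptch+/-* MB, 9.28, 8.88, 9.04 and 8.94 in *NdpKO;Ptch+/-* MB and 7.58, 7.03, 7.80 and 7.87 in WT GNP, higher on every tumor array by a mean of 1.46 in *Ptch+/-* MB and 1.47 in *NdpKO;Ptch+/-* MB (SE 0.22, adjusted p = 0.00146 and 0.00190). *Slc1a2* is also on the astrocyte marker list described above, and the part of astrocytes was not tested. *Slc38a1*, which imports glutamine, had differences of -1.59 and -1.68 (adjusted p = 0.00488 and 0.00466).

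Of 16 genes for scaffolds of excitatory synapses, 1 was higher and 3 lower in *Ptch+/-* MB than in WT GNP, 1 was higher and 1 lower in *NdpKO;Ptch+/-* MB, and 1 was higher in *NdpKO;Ptch+/-* MB than in *Ptch+/-* MB. The calls against WT GNP in either direction, 4 and 2 of 16, are near the 21.2% and 15.7% of all genes, and 0.808% of all genes were higher between tumors. *Dlgap3*, which links PSD-95 to Shank proteins, was higher by 1.63 in *Ptch+/-* MB (SE 0.21, adjusted p = 0.000619) and by 0.75 in *NdpKO;Ptch+/-* MB (SE 0.21, adjusted p = 0.0453). *Homer1*, a scaffold of group I metabotropic receptors, was the only partner gene that passed between tumors, at 0.57 higher in *NdpKO;Ptch+/-* MB (SE 0.10, adjusted p = 0.0268), and it was lower than in WT GNP by 0.71 in *Ptch+/-* MB (adjusted p = 0.000873). Of 9 genes for delta receptor ligands and their presynaptic partners, 2 were higher and 3 lower in *Ptch+/-* MB than in WT GNP, and 3 were higher and 3 lower in *NdpKO;Ptch+/-* MB (1 call in each at background). *Cbln4*, a secreted synapse organizer, gave 9.96, 11.47, 9.82 and 10.91 in *Ptch+/-* MB, 10.35, 10.79, 10.08 and 10.37 in *NdpKO;Ptch+/-* MB and 6.82, 7.73, 5.91 and 4.79 in WT GNP. It was higher on every tumor array, by 4.23 in *Ptch+/-* MB (SE 0.60, adjusted p = 0.00110) and 4.08 in *NdpKO;Ptch+/-* MB (SE 0.60, adjusted p = 0.00180). *Cbln1*, the granule cell ligand of the delta2 receptor, was lower by 0.85 and 0.98 (adjusted p = 0.0116 and 0.00744).

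At the median, the receptor genes with signal on all arrays varied more between replicates than all such genes did. This held in the tumors and in WT GNPs. Over the 8 genes measured on all 12 arrays, the median SD between replicates was 0.577 in *NdpKO;Ptch+/-* MB, 0.396 in *Ptch+/-* MB and 0.261 in WT GNP, against 0.218, 0.203 and 0.143 for all genes measured on all arrays. Not every gene did so: *Gria2* lay under the all-gene median in each group, with SDs of 0.138, 0.189 and 0.129 in the same order. These values are given as a description, since the 8 genes were not chosen at random and signal level was not matched. Groups of 4 did not overlap for 12 of the 37 genes in *Ptch+/-* MB against WT GNP, where 28.8% of all genes did not overlap, for 9 in *NdpKO;Ptch+/-* MB against WT GNP, where 25.0% did not, and for 3 in *NdpKO;Ptch+/-* MB against *Ptch+/-* MB, where 9.40% did not. Of those 3, *Gria2* was above background and *Grin3b* and *Gabrg1* were not. Of the 12 in *Ptch+/-* MB, *Grin3b*, *Grm3*, *Gabra4*, *Gabrg3* and *Gabbr2* were at background on every array. Of the 9 in *NdpKO;Ptch+/-* MB, *Grin3b*, *Grm3* and *Gabrg3* were. The breadth of the intervals between tumor groups, such as -2.17 to 0.52 for *Grin2b*, -1.73 to 0.51 for *Gria1* and -2.57 to 1.51 for *Grm4*, leaves room for differences of more than 1 on the log2 scale in either or a single direction, which were not detectable with 4 arrays a group.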

How the data were processed

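Total RNA of 4 tumors of each genotype and 4 GNP samples was hybridized to Illumina MouseWG-6 v2.0 arrays, 1 for each sample. The deposited log2 values were made by the authors with neqc of limma, applied to BeadStudio tables: the background is estimated from negative controls, a fixed offset is added and the arrays are quantile normalized. The offset compresses differences of dim probes, and a shift common to all probes of an array cannot be seen. Their limma version is not given in the sources used here. The values run from 4.09 to 16.0 over 45281 probes. No detection p was used, so the number of arrays and the background limit set the precision.

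Everything else was computed here in R 4.3.3 with limma 3.58.1. GEO's platform annotation gave 1 symbol to 34885 probes, several to 18 and none to 10378, which leaves 19057 genes. A group-means model was fitted to all 12 arrays with lmFit, contrasts.fit and eBayes, and p-values were adjusted by Benjamini-Hochberg over all probes. The limit of 4.5 was chosen after values of these data had been seen. A gene under it on all 4 arrays of the dimmer group gets an "at least" fold, which sets the other group's mean against that limit, and where only some arrays of that group lie under it the log2 difference is a fitted value. Every gene of the rule could be named, with values per array for those above background that passed in some comparison, and up to 3 genes per direction of each partner list by the smallest p. Per-array values of the other receptor genes above background and of some partner genes were added with their values in view. The receptor genes and all partner and marker lists were chosen with earlier results of these data known. The sequences are RefSeq promoter windows of GRCm38.p6, and 28 of the 37 genes had a window. The fit was tested on simulated data. Alternatives were median centring, a second quantile normalization, a filter on dim probes, array weights, eBayes with trend and robust set, the mean of a gene's probes, the replicate number as a block, the 2 groups of a comparison alone, each array left out in turn, an adjusted p of 0.01 and a log2 difference above 1. No slide or scan batch is given in the sources used here.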

Additional observations from a re-analysis of the deposited data

Results flagged for a closer look

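Over 40 tests of a gene in a group of 4 arrays, 2 had an array far from the other 3 by Dixon's criterion at the 95% level, and chance alone flags about 1 in 20. In *Ptch+/-* MB, *Grik1* was highest in replicate 3, at 7.27, where the other arrays lay between 4.28 and 4.52. In the same group, *Grin2b* was lowest in replicate 4, at 6.55, where the others lay between 8.60 and 9.02. The 2 arrays are different ones.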

How the results depend on the processing

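Each of 54 results for single genes (18 genes in 3 comparisons) was recomputed under up to 20 settings, and 1032 of 1074 values kept their direction and their side of the threshold. Most of the 54 results had not passed in the main fit, so that share says little of how stable the calls are. Both *Grin3a* calls, *Gria2* in *Ptch+/-* MB and *Gria4* in *NdpKO;Ptch+/-* MB passed under all 20. *Grik2* in *Ptch+/-* MB and *Gria2* in *NdpKO;Ptch+/-* MB each passed under 19 of 20. In *NdpKO;Ptch+/-* MB, *Gabbr1* passed under 15 of 20 and *Grin3b* under 16 of 19. Against WT GNP in *Ptch+/-* MB, the count of genes higher, 3, was 5 with dim probes left out, with the trend and robust prior and with array weights, 1 with a log2 difference above 1, and 3 to 5 without single arrays. The count lower, 1, was 2 with dim probes left out, with the trend and robust prior and with the mean of a gene's probes, 0 at an adjusted p of 0.01 and with a log2 difference above 1, and 1 to 2 without single arrays. In *NdpKO;Ptch+/-* MB, the count higher, 4, was 2 at an adjusted p of 0.01 and 2 with a log2 difference above 1, and 3 to 4 without single arrays. The count lower, 1, was 0 with the replicate block, 0 at an adjusted p of 0.01, and 0 to 2 without single arrays. Between tumors, the count higher, 0, was 1 with dim probes left out (*Gria4*), which tests fewer probes. Otherwise the causes were not tested.

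The replicate numbers do not pair the samples: 12 correlations of same-numbered arrays ran from -0.18 to 0.11, and 1 was over 0.1. With the replicate block, the adjusted p was 0.0557 for *Gria2* and 0.0728 for *Gabbr1* in *NdpKO;Ptch+/-* MB, 0.0527 for *Grik2* and 0.0463 for *Gria4* in *Ptch+/-* MB.

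Signs turned only for differences that did not pass. *Gria3* in *NdpKO;Ptch+/-* MB against WT GNP was -0.0467 with the mean of its probes, and *Grm5* between tumors was -0.10 with array weights. Without single arrays, the ranges against WT GNP in *NdpKO;Ptch+/-* MB were -0.25 to 0.0289 for *Gabra3*, -0.13 to 0.49 for *Gria1*, -0.52 to 0.13 for *Grik5*, -0.36 to 0.35 for *Grin2b* and -0.27 to 0.50 for *Grm4*. Between tumors they were -0.21 to 0.0745 for *Gabrd*, -0.0947 to 1.02 for *Grik1* and -0.32 to 0.72 for *Grm5*.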
